A study of Mus musculus with 4 samples.

Results

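The genes described here encode cathepsins, subunits of the vacuolar proton ATPase (V-ATPase), other lysosomal enzymes, lysosomal membrane proteins and the transcription factors that control them. They were taken from a list of 45 symbols, of which 42 had a probe set, among 19505 genes on the arrays. The symbols Ctsd, Atp6v0c and Glb1 had no probe set in the annotation used here. Macrophages were sorted from C57BL/6N mouse hearts, 15 to 16 weeks old, after transverse aortic constriction (TAC), surgery that constricts the aorta and so raises the pressure load on the heart. The cells came from a mix of 6 hearts, were sorted into populations titled Ccrl2, Trem2, CD163 and CD74, and each population gave 1 Clariom S array, so that all 4 share the strain, the operation and the pool of animals. No unoperated heart was analysed here. The labels put the sampling 8 weeks after TAC in the source names and 1 week after it in the growth protocol, name CD9 in the source of the library titled CD74, and list Lyve1 where the titles have CD163. Titles are used as library names here. With 1 library a population there is no replicate error and no test, the number of arrays limits the precision, and every difference is between 2 libraries, not between 2 conditions.

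Lysosomes are acidic organelles that break down what macrophages engulf, including dead cells, lipoproteins and debris of injured heart muscle. The V-ATPase pumps protons into the lumen, with a soluble V1 sector that hydrolyses ATP and a V0 sector in the membrane that carries the protons. Cathepsins cut proteins at that acidic pH, glycosidases trim sugars, and LAMP proteins coat the membrane. The MiT/TFE factors, among them TFEB, TFEC and MITF, bind an E-box motif in the promoters of many lysosomal genes.

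Levels are the deposited log2 values of each gene's probe set, and they are compared between libraries within a gene, not between genes. A background ceiling was set for each library at the 95th percentile of 1500 chemosensory receptor and keratin-associated protein genes, which are silent in most tissues. It lay at 5.67 in Ccrl2, 5.51 in Trem2, 6.28 in CD163 and 6.53 in CD74, and 7454, 8144, 4984 and 3621 genes lay above it. The scale ended at 19.93, and a value there is saturated. Differences were read between libraries 2 at a time, for genes above the ceiling in at least 1 of the pair, with any value under its ceiling set to the ceiling. Such a difference, like one with a single saturated value, is a bound and is written as "at least". A difference of 1 log2 unit, which is 2-fold, was the threshold for counting a gene as higher or lower.

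The libraries also differed in markers of other cells. Of 10 macrophage genes with a probe set, 10 lay above the ceiling in Ccrl2, Trem2 and CD163 and 7 in CD74, with medians of 16.50, 16.01, 16.23 and 8.04. Their summed signal was 21.54, 21.41, 21.30 and 17.72 on the log2 scale. Mertk, Fcgr1 and Cx3cr1 were the macrophage genes below the ceiling in CD74. Of 12 T and NK cell genes, 1, 8, 1 and 9 lay above it in Ccrl2, Trem2, CD163 and CD74, with a summed signal of 8.52, 10.84, 8.85 and 13.92. Neutrophil genes had their largest sum in Trem2 (17.15, against 10.01 in Ccrl2, 8.80 in CD163 and 9.91 in CD74), with 7 of 9 above the ceiling there. Fewer macrophages and less macrophage RNA per cell cannot be told apart in such libraries.

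**Figure D1:**
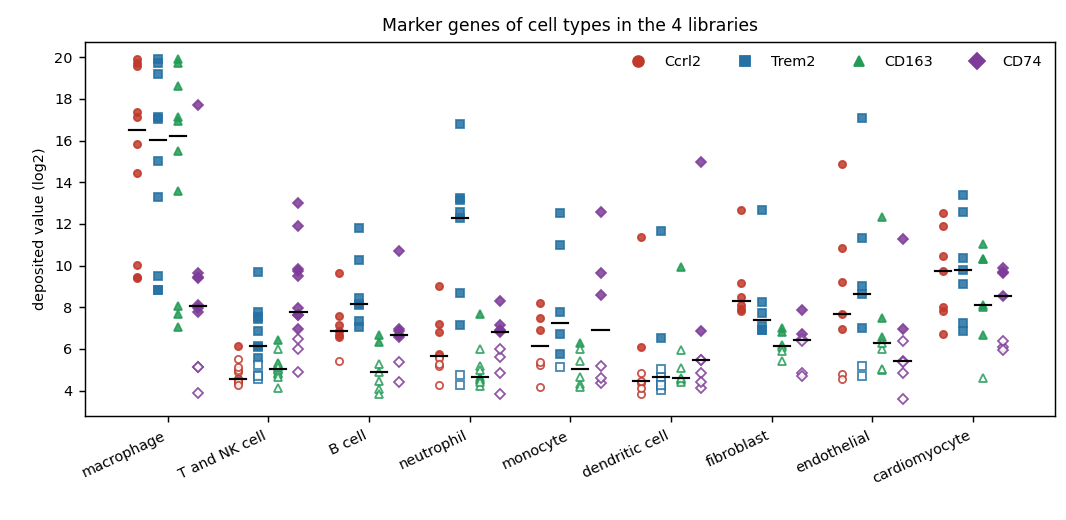
Deposited log2 values (vertical axis) of the marker genes of 9 cell types in the 4 libraries. Each point is 1 gene, filled above the library's background ceiling and open at or below it, and the bar is the median. The macrophage genes have medians of 16.50, 16.01 and 16.23 in Ccrl2, Trem2 and CD163 and 8.04 in CD74, where the T and NK cell genes have their highest median, 7.78.

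Of the 42 lysosomal genes, 38 lay above the ceiling in at least 1 library. The other 4, Ctse, Ctsk, Atp6v0d2 and Tfeb, stayed at or below it in all libraries, with values from 3.76 to 5.17. In Ccrl2, 38 of the 42 lay above the ceiling, in Trem2 37, in CD163 37 and in CD74 18. Of all 19505 genes, 7454, 8144, 4984 and 3621 lay above it in the same order of libraries. Ccrl2 held the highest value of 23 of the 38 genes (60.5%), where 31.5% of the 9346 genes measured in any library were highest there. Trem2 was highest for 8 (21.1%, against 38.5% of all measured genes) and CD163 for 5 (13.2%, against 14.8%). CD74 was highest for 0, against 1306 of the 9346 measured genes, and Ctsb and Laptm5 were tied. CD74 held the lowest value of 36 of the 38 (94.7%, against 47.8% of all measured genes). Such ranks, here and for the other lists, use the deposited values also where they lie under the ceiling. In CD74 only 18 of the 42 genes passed the ceiling, so low ranks there often rest on values at background level. Among Ccrl2, Trem2 and CD163 alone, CD163 was lowest for 28 of the 38, where it was lowest for 5631 of the 9346 measured genes. With dim values at the ceiling, the lysosomal genes spanned a median of 2.69 log2 units over the 4 libraries, against 1.11 for all measured genes. Over Ccrl2, Trem2 and CD163 they spanned 0.97 against 0.85, so that most of their spread lay between CD74 and the rest. The ceilings ran from 5.51 in Trem2 to 6.53 in CD74, so part of a dim gene's span comes from the ceilings themselves. All measured genes were dimmer than the lysosomal genes (median 6.76 against 9.72 in Ccrl2), so this weighs more on their spans, which are no clean baseline.

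The order of Ccrl2 and CD163 depended on how the columns were scaled. The columns as deposited did not share a distribution, and the median difference over all genes tested was 0.30 for Ccrl2 minus CD163, 0.25 for Trem2 minus CD163, 0.26 for Ccrl2 minus CD74, 0.28 for Trem2 minus CD74, 0.09 for CD163 minus CD74 and -0.01 for Ccrl2 minus Trem2. Quantile normalization brings these to 0. After it, Ccrl2 was highest for 17 lysosomal genes, CD163 for 12, Trem2 for 6 and CD74 for 1, and CD74 was lowest for 33. The matching shares of all genes were not counted after quantile normalization. Median centring, which shifts each library to a common median, left Ccrl2 highest for 24, CD163 highest for 4 and CD74 lowest for 36. CD74 thus held the lowest value of most lysosomal genes under each scaling. The counts of genes apart between CD163 and Ccrl2 or Trem2 are given for deposited and quantile-normalized values.

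**Figure D2:**
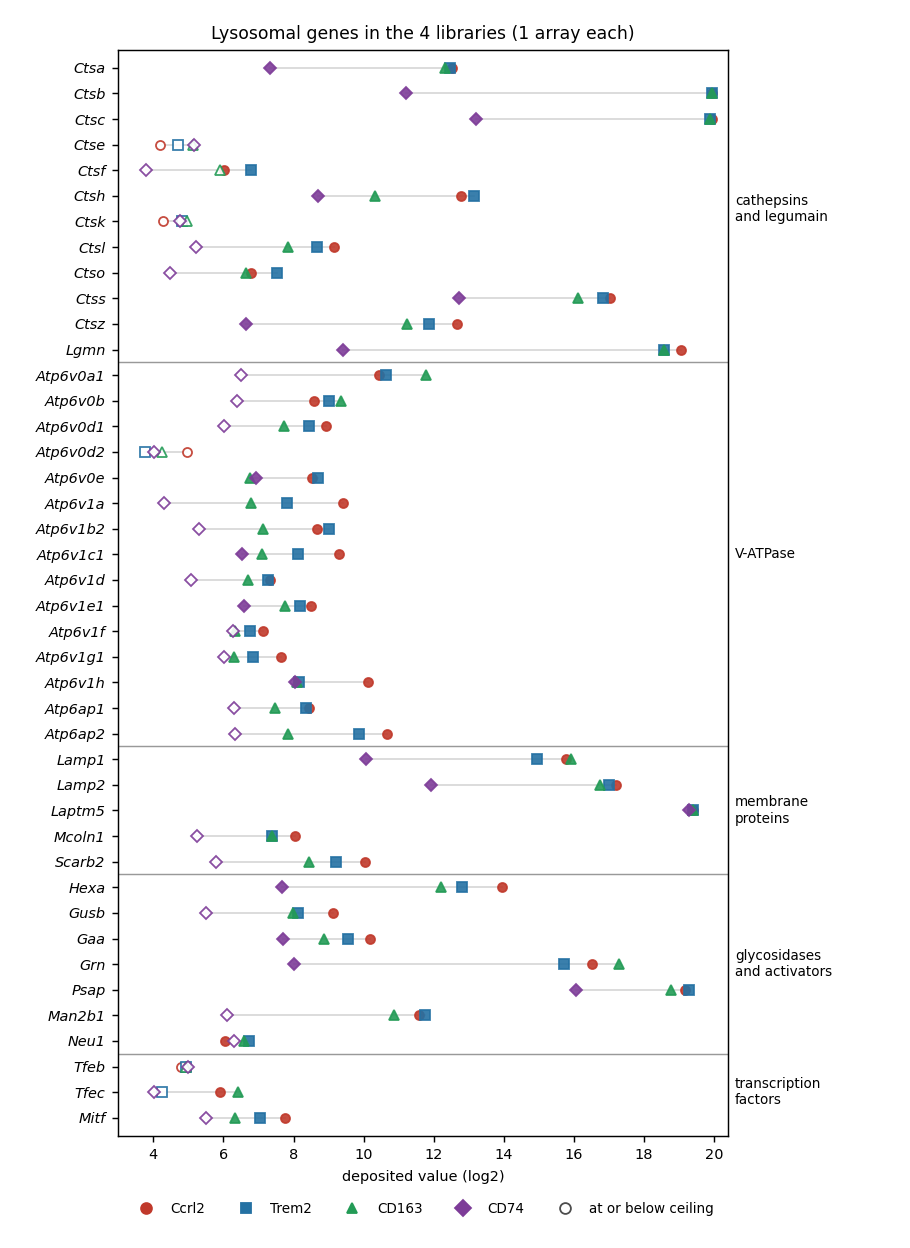
Deposited log2 values (horizontal axis) of the 42 lysosomal genes with a probe set, 1 row a gene, grouped by role. Symbols stand for the 4 libraries, filled above the library's background ceiling and open at or below it, and the line spans the range. In 36 of the 38 genes above a ceiling the CD74 value is the lowest.

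Among the transcription factors, Mitf, a melanocyte and myeloid factor of the MiT/TFE family, stood at 7.75 in Ccrl2, 7.04 in Trem2 and 6.34 in CD163, with a CD74 value of 5.49 that did not pass the ceiling. Its Ccrl2 value was 2.66-fold above CD163 on the deposited values and 0.84 log2 units above it after quantile normalization, under the threshold. Tfec, a family member found mainly in macrophages, had 6.41 in CD163, 5.91 in Ccrl2 and values below the ceiling in Trem2 (4.24) and CD74 (4.02). The Ccrl2 and CD163 values of Tfec lay under the CD74 ceiling, so no difference from CD74 was resolved. Tfeb, the best known activator of lysosomal genes, ran from 4.79 to 4.98, below every ceiling. Of the listed factors, Mitf and Tfec were therefore measurable in Ccrl2 and CD163, and only Mitf in Trem2. Tfe3, another gene of the MiT/TFE family, was not on this list. It stood at 8.45 in Ccrl2, 7.69 in Trem2 and 7.42 in CD163, with a CD74 value of 4.35 that did not pass the ceiling.

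Promoters of the list were searched for the letters these factors bind. RefSeq promoter sequences (GRCm38.p6, 250 bases before to 50 after a gene's start) were at hand for 37 of the 45 listed genes. They were not for Ctsb, Ctse, Ctsh, Atp6v0d2, Atp6v1b2, Atp6v1c1, Atp6v1g1 and Atp6v1h. The motif TCACGTG, on either strand, stood in a promoter of 11 of the 37 (29.7%), against 4.29% of the 27025 genes with a promoter sequence. Counted by window, it was in 11 of 46 promoters of listed genes (23.9%) and in 3.77% of all 32851. Its core CACGTG, which reads the same on both strands and lies within every TCACGTG, was found in 13 of the 37 genes (35.1%), against 8.09% of all. The 11 genes were Ctsa, Ctsd, Lgmn, Atp6v0b, Atp6v0d1, Atp6v0e, Atp6v1a, Lamp1, Mcoln1, Gaa and Glb1. A match describes the letters and is not a measured binding site.

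These stretches upstream of the start show how the motif is placed in 4 genes with different roles, namely a membrane protein (Lamp1, chr8:13159070-13159160, plus strand), an ion channel (Mcoln1, chr8:3500418-3500509, plus strand), a V0 subunit (Atp6v0b, chr4:117887330-117887395, minus strand) and a glucosidase (Gaa, chr11:119267793-119267858, plus strand). Capitals mark CACGTG with a flanking T before it or A after it, where present.
Lamp1: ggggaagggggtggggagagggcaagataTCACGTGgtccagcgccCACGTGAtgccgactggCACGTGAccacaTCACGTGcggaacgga
Mcoln1: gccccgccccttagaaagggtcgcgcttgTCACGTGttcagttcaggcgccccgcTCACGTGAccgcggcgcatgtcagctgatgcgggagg
Atp6v0b: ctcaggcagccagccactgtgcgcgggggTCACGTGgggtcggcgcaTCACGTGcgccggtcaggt
Gaa: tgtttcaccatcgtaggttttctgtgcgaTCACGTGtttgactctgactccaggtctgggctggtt
Lamp1 carried 4 copies of the core in this stretch, Mcoln1 2, Atp6v0b 2 and Gaa 1. Among the genes above the ceiling in the pair, the 9 with TCACGTG and the 23 without it had median differences of 2.47 and 2.64 between Ccrl2 and CD74. Between Ccrl2 and CD163 the medians were 0.66 and 0.70, and between Ccrl2 and Trem2 0.50 and 0.20. The motif genes ranged from 1.51 to 9.65 and the others from 0 to 8.52 in the first of these comparisons, so the sets overlapped widely.

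In the V1 sector, several subunits had their highest values in Ccrl2. Atp6v1a, which encodes the catalytic A subunit, stood at 9.40 in Ccrl2, 7.81 in Trem2 and 6.79 in CD163, with a CD74 value of 4.29 that did not pass the ceiling. Atp6v1c1, a C subunit that joins V1 to V0, had 9.29, 8.14, 7.11 and 6.54 in the same order of libraries, and Atp6v1h, the regulatory H subunit, 10.12, 8.15, 8.11 and 8.03. On the deposited values Ccrl2 thus stood above the next library by 1.59, 1.15 and 1.97 log2 units in these 3 genes. These are 3.01-fold, 2.22-fold and 3.92-fold. Against Trem2 the excess stayed above 2-fold after quantile normalization (1.40, 1.03 and 1.79). Against CD163 it was 6.11-fold for Atp6v1a, 4.53-fold for Atp6v1c1 and 4.03-fold for Atp6v1h, and after quantile normalization 1.64, 1.14 and 0.79 log2 units. For Atp6v1h the next library after quantile normalization was CD74, with 9.06 against 9.38 in Ccrl2, a difference of 0.32.

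The other V1 subunits were closer together. Atp6v1b2, the B subunit of most tissues, had 9.0 in Trem2, 8.67 in Ccrl2 and 7.14 in CD163, with a CD74 value of 5.29 that did not pass the ceiling. Atp6v1g1, a stalk subunit, stood at 7.63 in Ccrl2, 6.85 in Trem2 and 6.29 in CD163, with a CD74 value of 6.01 that did not pass the ceiling. Both were over 2-fold above CD163 in Ccrl2 (2.89-fold and 2.53-fold), but by 0.59 and 0.82 log2 units after quantile normalization. Atp6v1e1, another stalk subunit, had 8.50 in Ccrl2, 8.18 in Trem2, 7.77 in CD163 and 6.59 in CD74. Atp6v1d, of the central rotor, had 7.33, 7.26, 6.71 and 5.07, and Atp6v1f, also of the rotor, 7.13, 6.76, 6.33 and 6.27, the CD74 values of both below the ceiling. These 3 differed by less than 2-fold among Ccrl2, Trem2 and CD163.

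In the V0 sector the order of the libraries was not shared on the deposited values. Atp6v0a1, an a subunit that forms part of the proton path, had its highest value in CD163 (11.77), against 10.64 in Trem2 and 10.45 in Ccrl2, and a CD74 value of 6.49 that did not pass the ceiling. It was the only lysosomal gene over 2-fold higher in CD163 than in Ccrl2 on the deposited values (2.50-fold), and the difference was larger after quantile normalization (-2.47 for Ccrl2 minus CD163). Atp6v0b, a proteolipid of the membrane ring, had 9.35 in CD163, 9.02 in Trem2 and 8.58 in Ccrl2, with a CD74 value of 6.38 that did not pass the ceiling. Its deficit in Ccrl2 against CD163 was -0.77, and -1.77 after quantile normalization. Atp6v0d1, which couples the ring to V1, stood at 8.93 in Ccrl2, 8.43 in Trem2 and 7.74 in CD163, with a CD74 value of 6.03 that did not pass the ceiling. Ccrl2 and Trem2 lay 1.19 and 0.69 log2 units above CD163, and quantile normalization brought these differences to 0.12 and -0.36.

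Atp6v0e, a small V0 subunit, was the 1 gene of the 38 lowest in CD163, at 6.76, with 6.92 in CD74, 8.53 in Ccrl2 and 8.69 in Trem2. Trem2 lay 3.81-fold above CD163 for this gene, and 1.02 log2 units above it after quantile normalization. The accessory proteins help assemble the pump. Atp6ap2, also known as the prorenin receptor, stood at 10.67 in Ccrl2, 9.87 in Trem2 and 7.84 in CD163, with a CD74 value of 6.33 that did not pass the ceiling. Its Ccrl2 value was 7.11-fold above CD163, which is 2.83 log2 units, and 1.61 after quantile normalization. Atp6ap1 had 8.44, 8.35, 7.48 and 6.30, the last below the ceiling, and lay within 2-fold in Ccrl2, Trem2 and CD163. Atp6v0d2, a d subunit of osteoclasts and some macrophages, was below the ceiling in all 4 libraries.

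Among the cathepsins, several were near the top of the scale in Ccrl2, Trem2 and CD163. Ctsb, a cysteine protease, was saturated in these 3 libraries (19.93) and had 11.22 in CD74, at least 419-fold lower. Ctsc, which activates granule serine proteases, had 19.93 in Ccrl2, 19.88 in Trem2 and CD163 and 13.20 in CD74. Legumain (Lgmn), an asparaginyl endopeptidase that processes cathepsins, had 19.06 in Ccrl2, 18.57 in CD163, 18.56 in Trem2 and 9.41 in CD74. The CD74 value of Lgmn was 9.65 log2 units under that of Ccrl2 (7.56 after quantile normalization). Values near the top are coarse: of 66 gene probe sets with a mean of 17 or more and short of saturation, 33.3% had identical values in Ccrl2 and Trem2, against 0.739% of 10696 with a mean between 5 and 8. The small differences of Ctsc and Lgmn among Ccrl2, Trem2 and CD163 are therefore poorly resolved.

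Ctsh, an aminopeptidase, separated CD163 from Ccrl2 and Trem2. It had 13.14 in Trem2, 12.77 in Ccrl2, 10.34 in CD163 and 8.71 in CD74. Trem2 was 6.96-fold and Ccrl2 5.39-fold above CD163, with 1.42 and 1.2 log2 units left after quantile normalization. Ctsz, a carboxypeptidase also called cathepsin X, had 12.68 in Ccrl2, 11.87 in Trem2, 11.24 in CD163 and 6.64 in CD74. Ctsl, another cysteine protease of antigen and matrix breakdown, stood at 9.17 in Ccrl2, 8.67 in Trem2 and 7.85 in CD163, with a CD74 value of 5.21 that did not pass the ceiling. Ccrl2 was 2.71-fold and 2.50-fold above CD163 for these genes, but after quantile normalization the differences were 0.22 and 0.20.

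Ctss, the protease that trims the class II invariant chain, had 17.03 in Ccrl2, 16.83 in Trem2, 16.12 in CD163 and 12.73 in CD74. Ctsa, a carboxypeptidase that protects lysosomal glycosidases, had 12.52, 12.46, 12.31 and 7.32 in the same order. On the deposited values both lay within 2-fold in Ccrl2, Trem2 and CD163 and over 2-fold lower in CD74, by 4.30 and 5.20 log2 units against Ccrl2. After quantile normalization Ctsa was 1.07 log2 units lower in Trem2 than in CD163. Ctso had 7.52 in Trem2, 6.80 in Ccrl2 and 6.65 in CD163, with a CD74 value of 4.48 that did not pass the ceiling. Ctsf had 6.78 in Trem2 and 6.02 in Ccrl2 and lay below the ceiling in CD163 (5.91) and CD74 (3.80). Ctse, of gastric and immune cells, and Ctsk, the collagenase of osteoclasts, did not pass a ceiling.

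Glycosidases were highest in Ccrl2 or Trem2 on the deposited values, and Man2b1 and Neu1 were highest in CD163 after quantile normalization. Hexa, the alpha chain of beta-hexosaminidase, had 13.94 in Ccrl2, 12.81 in Trem2, 12.22 in CD163 and 7.66 in CD74. Gusb, beta-glucuronidase, stood at 9.13 in Ccrl2, 8.13 in Trem2 and 7.99 in CD163, with a CD74 value of 5.50 that did not pass the ceiling. These 2 genes and the 3 V1 genes above were the lysosomal genes at least 2-fold higher in Ccrl2 than in Trem2, with 2.19-fold for Hexa (1.18 log2 units after quantile normalization) and 2-fold for Gusb (0.90, under the threshold). Gaa, the acid alpha-glucosidase that degrades glycogen, had 10.18 in Ccrl2, 9.55 in Trem2, 8.87 in CD163 and 7.71 in CD74. Against CD163, Hexa, Gusb and Gaa were 1.72, 1.14 and 1.31 log2 units higher in Ccrl2, and 0.51, 0.01 and 0.06 after quantile normalization. Man2b1, an alpha-mannosidase, had 11.76 in Trem2, 11.57 in Ccrl2 and 10.87 in CD163, with a CD74 value of 6.10 that did not pass the ceiling. Neu1, a sialidase, was at 6.74 in Trem2, 6.60 in CD163, 6.04 in Ccrl2 and 6.30, under the ceiling, in CD74. On the deposited values it was the 1 gene of the 38 above a ceiling that was lowest in Ccrl2, but its order against CD74 was unresolved.

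Progranulin (Grn), a growth factor cut into granulins inside lysosomes, had its highest value in CD163. It had 17.29 there, 16.52 in Ccrl2, 15.71 in Trem2 and 8.00 in CD74. CD163 was 2.99-fold above Trem2 (1.58 log2 units, and 2.42 after quantile normalization) and 0.77 log2 units above Ccrl2 (1.71 after quantile normalization). Its CD74 value was 9.29 log2 units under CD163. Prosaposin (Psap), the precursor of activators of sphingolipid breakdown, had 19.28 in Trem2, 19.18 in Ccrl2, 18.77 in CD163 and 16.07 in CD74. On the deposited values Psap was 8.63-fold lower in CD74 than in Ccrl2, but by 0.48 log2 units after quantile normalization.

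Among the membrane proteins, Lamp1, a main coat protein, had 15.93 in CD163, 15.77 in Ccrl2, 14.94 in Trem2 and 10.07 in CD74. Lamp2, needed for fusion with autophagosomes, had 17.20 in Ccrl2, 17.01 in Trem2, 16.74 in CD163 and 11.92 in CD74. For both LAMP genes Ccrl2 lay over 5 log2 units above CD74 (5.70 and 5.28, and 3.42 and 3.13 after quantile normalization). Scarb2, a carrier of glucocerebrosidase, stood at 10.03 in Ccrl2, 9.22 in Trem2 and 8.45 in CD163, with a CD74 value of 5.78 that did not pass the ceiling. Its Ccrl2 value was 1.58 log2 units above CD163, and 0.37 after quantile normalization. Mcoln1, the calcium channel TRPML1, stood at 8.04 in Ccrl2, 7.39 in Trem2 and 7.38 in CD163, with a CD74 value of 5.25 that did not pass the ceiling. Laptm5, a lysosomal protein of all blood cell lineages, had 19.39 in Ccrl2, Trem2 and CD163 and 19.28 in CD74. It was the gene of the list with the smallest range over the 4 libraries, 0.11 log2 units, near the top of the scale, and after quantile normalization it was 1.14 log2 units higher in CD74 than in Ccrl2.

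Counted over the list, Ccrl2 and Trem2 differed little. Of 38 lysosomal genes tested, 5 were at least 2-fold higher in Ccrl2 and 0 in Trem2, while over all 8773 genes tested 5.43% were higher in Ccrl2 and 7.92% in Trem2. The median difference was 0.34, against -0.01 for all genes. After quantile normalization 4 were higher in Ccrl2 and 0 in Trem2, beside 3.83% and 4.23% of all genes, and all 4 (Atp6v1a, Atp6v1c1, Atp6v1h and Hexa) were among the 5. Of the 10 cathepsins tested, 0 were counted as 2-fold apart either way, with Ctsb saturated in both libraries and Ctsc in Ccrl2. In the same comparison 7 of 7 neutrophil genes tested and 5 of 7 B cell genes were at least 2-fold higher in Trem2, as were 5 of 8 T and NK cell and 3 of 5 monocyte genes. Of 6 fibroblast genes 3 were higher in Ccrl2, and 10 macrophage genes had a median of 0.48 with 1 higher in Ccrl2. The part of these cells in the lysosomal differences was not tested.

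Between Ccrl2 and CD163, 16 of 38 lysosomal genes were at least 2-fold higher in Ccrl2 and 1 in CD163, against 28.1% and 5.03% of 7891 genes. The median difference was 0.76, with 0.30 for all genes. By role, 8 of 14 V-ATPase genes, 3 of 10 cathepsins, 3 of 7 glycosidases and activators and 1 of 5 membrane proteins were higher in Ccrl2. After quantile normalization 4 were higher in Ccrl2 (Ctsh, Atp6v1a, Atp6v1c1 and Atp6ap2) and 4 in CD163 (Atp6v0a1, Atp6v0b, Lamp1 and Grn), against 9.45% and 13.3% of all genes, with a list median of 0.02. The excess of the list in Ccrl2 over CD163 was thus not seen after quantile normalization. Median centring instead gave 18 genes higher in Ccrl2 and 1 in CD163, with a list median of 0.94. The 4 genes higher in Ccrl2 after quantile normalization, and Atp6v0a1, were past the threshold in the same direction on the deposited values. In this comparison 6 of 6 fibroblast and 4 of 5 endothelial genes were also at least 2-fold higher in Ccrl2, as were 4 of 7 cardiomyocyte, 2 of 3 monocyte and 3 of 10 macrophage genes, and their part in the result was not tested.

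Trem2 and CD163 gave 6 of 38 lysosomal genes higher in Trem2 and 2 in CD163, against 27.6% and 6.07% of 8532 genes. The list median was 0.53, with 0.25 over all genes. After quantile normalization 2 were higher in Trem2 (Ctsh and Atp6v0e) and 7 in CD163 (Atp6v0a1, Grn, Ctsa, Atp6v0b, Atp6v1h, Lamp1 and Tfec), against 10% and 15.0% of all genes, and the list median was -0.33. The sign of the median thus turned with quantile normalization. With median centring it did not, at 0.7, with 9 genes higher in Trem2 and 1 in CD163. In Trem2, 6 of 7 neutrophil and 6 of 7 B cell genes tested were at least 2-fold above CD163, as were 4 of 5 endothelial, 4 of 7 cardiomyocyte, 3 of 6 fibroblast, 3 of 5 monocyte, 4 of 8 T and NK cell and 2 of 10 macrophage genes. Their part in the result was not tested.

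**Figure D3:**
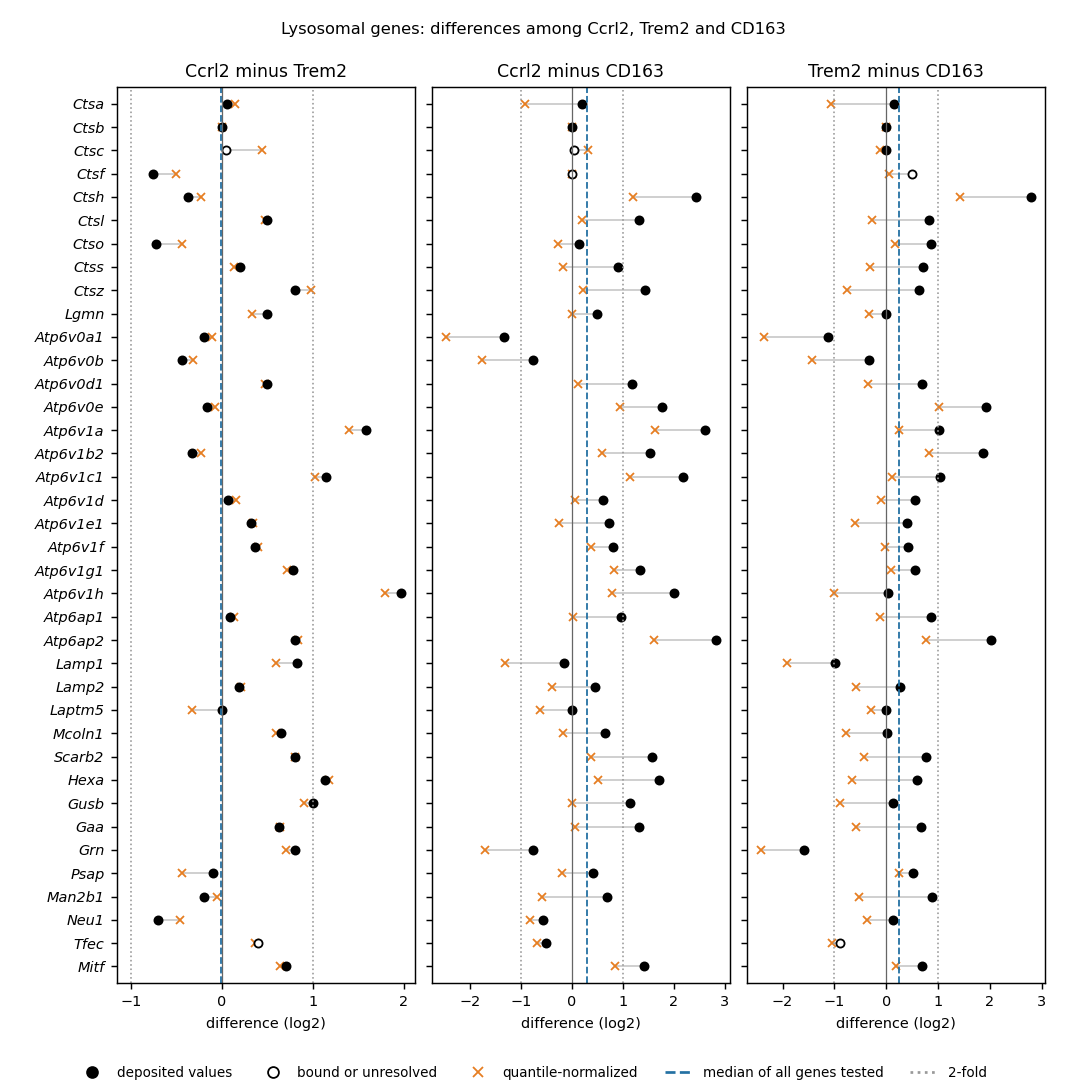
Differences of 38 lysosomal genes (rows) among Ccrl2, Trem2 and CD163 in log2 units (horizontal axis). Circles are the deposited values, open where the difference is a bound or unresolved, and crosses are quantile-normalized values. Ctsb, saturated in Ccrl2, Trem2 and CD163, is drawn filled at 0, although its differences could not be measured. Dotted lines mark 2-fold and the dashed line the median of all genes tested. Atp6v1h, at 1.97, has the largest plotted value in Ccrl2 minus Trem2, and in both comparisons with CD163 most crosses lie to the left of their circles.

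The CD74 library was low in most of the list. Against it, 31 of 38 lysosomal genes were at least 2-fold higher in Ccrl2 and 0 in CD74, where 32.0% and 7.80% of 7902 genes were so. Against Trem2 the counts were 27 and 0 of 37, beside 32.6% and 7.62% of 8522 genes. Against CD163 they were 22 and 0 of 37, beside 19.3% and 9.98% of 5842 genes. The list medians were 2.62, 2.14 and 1.31, and those of all genes 0.26, 0.28 and 0.09. After quantile normalization 22, 18 and 19 lysosomal genes were higher in Ccrl2, Trem2 and CD163, against 12.1%, 10.6% and 15.9% of all genes. In CD74 1, 1 and 0 were then higher, namely Laptm5 against Ccrl2 and Atp6v1h against Trem2, beside 20.3%, 18.1% and 21.2% of all genes. These comparisons share the CD74 library, so they are not independent of each other.

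The roles differed in how far CD74 lay under the others. Between Ccrl2 and CD74 the 10 cathepsins had a median of 4.75, the 14 V-ATPase genes 2.07, the 5 membrane proteins 3.50 and the 7 glycosidases and activators 3.11. Between CD163 and CD74 the cathepsins (9 tested) had 4.60 and the V-ATPase genes 0.59. Many V-ATPase values in CD74 lay below its ceiling, so their differences are bounds and their medians understate the gap by an unknown amount. Laptm5 lay within 2-fold between Ccrl2 and CD74. Ctsf, Ctso, Atp6v1d, Atp6v1f, Neu1 and Tfec were not counted as 2-fold apart either, but all of them were below the ceiling in CD74. Their differences are bounds or unresolved, so they are not shown to lie within 2-fold. In the same comparison Ccrl2 exceeded CD74 at least 2-fold in 10 of 10 macrophage genes, with a median of 6.43, and 9 of 9 T and NK cell genes tested at least 2-fold higher in CD74, with a median of -3.83 for Ccrl2 minus CD74. Of the others, 5 of 6 fibroblast, 3 of 5 endothelial and 5 of 7 cardiomyocyte genes were higher in Ccrl2 and 3 of 3 monocyte genes in CD74. The part of that difference in cell types in the lysosomal values was not tested.

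**Figure D4:**
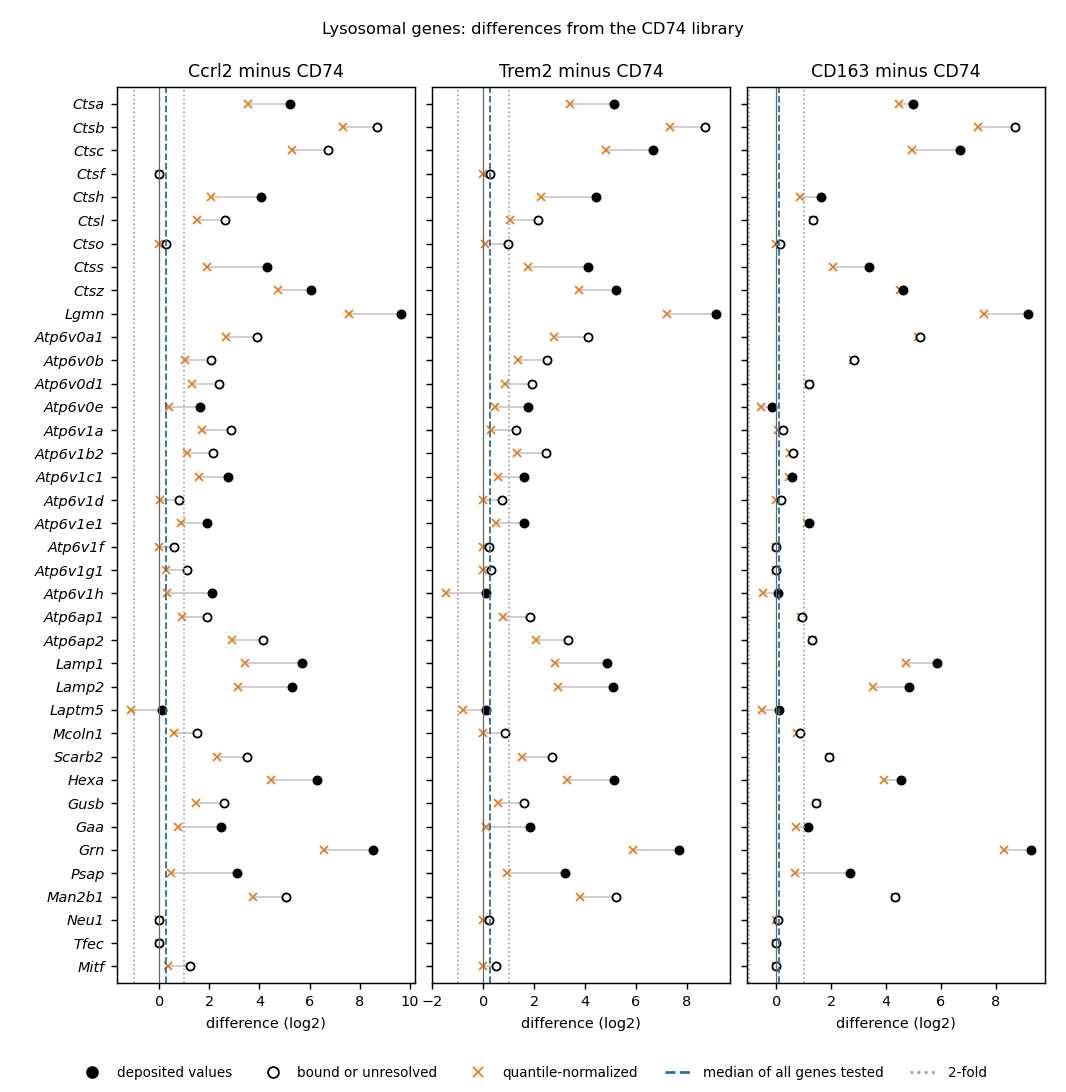
Differences of lysosomal genes (rows) of Ccrl2, Trem2 and CD163 from the CD74 library in log2 units (horizontal axis), with the deposited values as filled circles, bounds and unresolved differences as open circles and quantile-normalized values as crosses. Dotted lines mark 2-fold and the dashed line the median of all genes tested. Lgmn (9.65, 9.15 and 9.16) and Grn (8.52, 7.71 and 9.29) lie far to the right in all 3 panels, and Laptm5 lies at 0.11 in each.

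**Figure D5:**
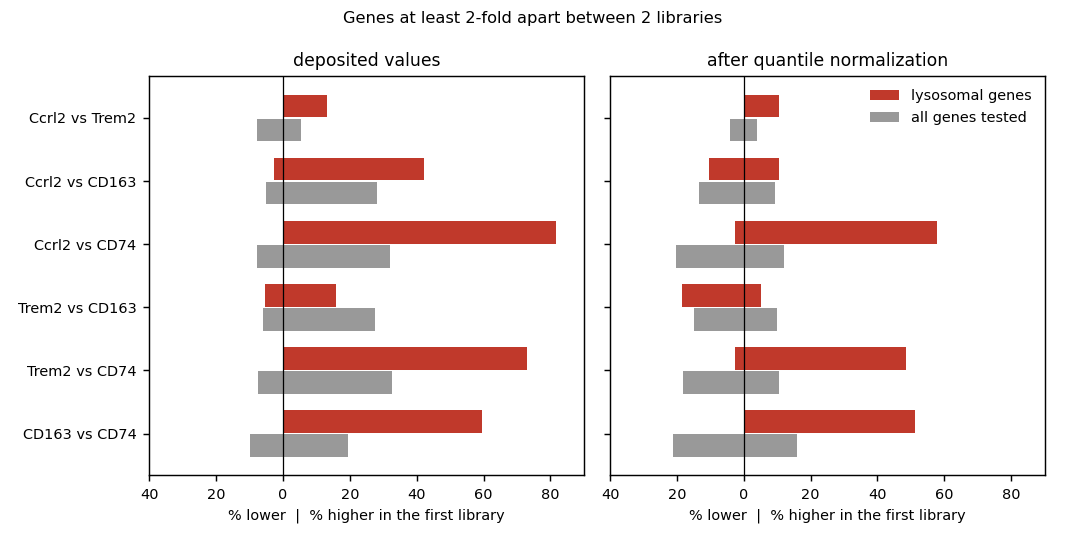
Share of lysosomal genes (red) and of all genes tested (grey) at least 2-fold higher (right of 0) or lower (left of 0) in the first library of each pair, in percent, with deposited values on the left and quantile-normalized values on the right. In the 3 pairs with CD74 the red bars to the right reach 81.6%, 73.0% and 59.5% on the deposited values, over grey bars of 32.0%, 32.6% and 19.3%.

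Other genes of the lysosome were counted from lists that do not share members with the one above. Of 25 other lysosomal enzymes and activators with a probe set, 22 were measured in some library and 19 of these had their lowest value in CD74. Of all measured genes, 47.8% were lowest there. Asah1, acid ceramidase, had 13.27 in CD163, 12.93 in Trem2 and 12.54 in Ccrl2, with a CD74 value of 6.51 that did not pass the ceiling. Tpp1, a tripeptidyl peptidase, had 13.13, 11.45, 12.69 and 5.81 in CD163, Trem2, Ccrl2 and CD74. These enzymes had the widest ranges of that list, and Smpd1, acid sphingomyelinase, was the single enzyme highest in CD74 (7.78 there, 7.00 in Trem2, 6.24 in Ccrl2 and 5.73 in CD163, where it was under the ceiling). Of 21 enzymes tested between Ccrl2 and CD74, 13 were at least 2-fold higher in Ccrl2 and 1 in CD74, beside 32.0% and 7.80% of all genes, with a median of 1.93. After quantile normalization 7 and 1 were, beside 12.1% and 20.3%, with a median of 0.34. Between Ccrl2 and Trem2, 4 of 21 were higher in Ccrl2 and 1 in Trem2 under both scalings. Of all genes, 5.43% and 7.92% were so on the deposited values and 3.83% and 4.23% after quantile normalization.

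Of 21 other membrane proteins and transporters measured, 14 were lowest in CD74, beside 47.8% of all measured genes. Laptm4a had 13.81 in Ccrl2, 13.67 in Trem2, 13.71 in CD163 and 9.28 in CD74, and Slc11a1, the metal transporter NRAMP1, 12.92, 12.78, 11.04 and 8.81. Between Ccrl2 and CD74, 10 of 21 were at least 2-fold higher in Ccrl2 and 0 in CD74, beside 32.0% and 7.80% of all genes. After quantile normalization 4 and 0 were, beside 12.1% and 20.3%. Between Ccrl2 and CD163, 7 were higher in Ccrl2 and 1 in CD163, a share near the 28.1% and 5.03% of all genes. After quantile normalization 0 and 2 were, beside 9.45% and 13.3%. Of 9 further V-ATPase subunits, 4 were measured. Tcirg1, the a3 subunit of osteoclasts and macrophages, stood at 8.13 in Ccrl2, 7.78 in Trem2 and 6.36 in CD163, with a CD74 value of 5.36 that did not pass the ceiling, and Atp6v0a2 had 6.74, 6.99, 6.34 and 6.03, the last also under the ceiling. The G subunit isoforms Atp6v1g3 and Atp6v1g2 were highest in CD74, at 7.75 and 6.74, with Atp6v1g3 below the ceiling in the other 3 libraries. The isoforms of this pump thus did not all follow the low values of CD74.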

How the data were processed

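RNA of sorted macrophages was amplified with a whole-transcript kit for small inputs and hybridised to Clariom S mouse arrays. The deposited log2 values were background-corrected, normalized and summarised by robust multichip average, per the labels' protocols. GeneSpring is named there too, and Affymetrix Expression Console in the submitters' processing notes. Settings were not given in the sources used here. That the values are log2 was judged from their range, 2.97 to 19.93.

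There were 28846 probe sets, 6640 of them controls. A single symbol was attached to 19572 in the platform table and no symbol to 2634. Each gene of the list had 1 probe set, and for 55 other genes the brightest on average was used. Values within 0.015 of the top counted as saturated. All listed genes with a probe set were named. From each other list the 2 genes with the widest range over the libraries were named where CD74 was lowest, and 2 where it was highest. Tfe3 and Stfa2 were named in addition, after their values were seen. The call rule was tested on simulated data. The genes, lists and thresholds were chosen with earlier results of these data known. Quantile normalization was over gene probe sets. Python 3.11.15, numpy 2.4.6 and pandas 2.3.3 were used.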

Additional observations from a re-analysis of the deposited data

How the results depend on the processing

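Counts and medians are of lysosomal genes. After quantile normalization the counts became 4 higher in Ccrl2 and 4 in CD163 (median 0.02), 2 in Trem2 and 7 in CD163 (median -0.33), and 1 in CD74 against Ccrl2 (median of Ccrl2 minus CD74 1.4) and 1 against Trem2 (median 0.92). In that scaling 12 genes were highest in CD163 and 1 in CD74, and 2 were lowest in Ccrl2 and 2 in Trem2. Median centring gave 9 genes higher in Trem2 and 1 in CD163 (median 0.7), and 18 in Ccrl2 and 1 in CD163 (median 0.94). A 1.5-fold threshold gave 14 higher in Ccrl2 and 3 in Trem2, 3 in CD163 against Ccrl2, and 17 in Trem2 and 4 in CD163. A 4-fold threshold gave 0 higher in Ccrl2 than in Trem2, 5 in Ccrl2 and 0 in CD163, 2 in Trem2 and 0 in CD163, and 14 in CD163 against CD74. The matching shares of all genes were not counted at these thresholds or after median centring, so these counts cannot be read against other genes. With deposited values under the ceiling kept, a setting chosen after seeing the data, the medians against CD74 were 3.24 for Ccrl2, 3.21 for Trem2 and 2.39 for CD163. The cause of these moves was not tested. Leaving out saturated genes moved none of these counts by over 1.5 times. No filter on dim genes and a filter at the library median could not move them, since a gene under both ceilings has a difference of 0. The mean over probe sets left every listed gene's value as it was, as each had 1 probe set. No paired analysis was possible because each population was 1 library, and no replicate could be left out. Signal near background limits most V-ATPase values in CD74, and coarse steps limit values near the top of the scale.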

Other observations

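Of 20 genes of sorting to the lysosome and of nutrient sensing at its surface that were measured in some library, 17 had their lowest value in CD74. Of all measured genes, 47.8% were lowest there. Rragc, a Rag GTPase that recruits the growth regulator mTORC1, had 12.89 in Trem2, 12.46 in Ccrl2, 10.11 in CD163 and 6.45 in CD74, the last under its ceiling. Rab7, a GTPase of late endosomes, had 18.92 in Trem2, 18.77 in Ccrl2 and CD163 and 15.50 in CD74. Gnptg, a subunit of the enzyme that tags hydrolases for the lysosome, was the single gene of that list highest in CD74 (7.60, against 7.47 in CD163, 7.16 in Ccrl2 and 6.78 in Trem2).

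Among inhibitors of cathepsins, Cst3, the secreted cystatin C, had 18.37 in Trem2, 18.33 in Ccrl2, 17.90 in CD163 and 14.12 in CD74, and Cstb, a cytosolic inhibitor, 8.09, 8.51, 7.87 and 7.53 in the same order. Stfa2 lay above the ceiling in Trem2 (6.12) and Ccrl2 (5.85), and the other 5 inhibitors with a probe set did not pass a ceiling (Stfa2 was singled out after its values were seen). Ctsw, a cathepsin of T and NK cells, was above the ceiling in CD74 alone, at 8.21, with 5.19 in Trem2, 4.10 in CD163 and 4.07 in Ccrl2. Ctsg, of granulocytes, did not pass a ceiling, its values running from 3.72 to 4.83.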
